A study of Mus musculus with 3 samples.

Results

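The miR-99/100 and miR-125 families were followed in mouse TAG1 ES cells, a line in which doxycycline (Dox) induces the constitutively active Alk4* receptor, which phosphorylates Smad2/3. Every arm of miR-99a, miR-99b, miR-100, miR-125a and miR-125b that the files list was taken by its name, which gave 8 of the 693 listed miRNAs. They are the 5p arms miR-99a-5p, miR-99b-5p, miR-100-5p, miR-125a-5p and miR-125b-5p and the 3p arms miR-99b-3p, miR-125a-3p and miR-125b-1-3p. miR-99a-3p, miR-100-3p and miR-125b-2-3p are not listed. A miRNA had to reach 10 reads, summed over the libraries, to be listed.

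Short RNA was sequenced in 3 conditions with 1 library each. The first, 0 hr, held untreated TAG1 cells grown in FBS. For the second, 16 hrs SB, the inhibitor SB-431542 (SB, given as SB-431541 in the labels) was added at 30 µM for 16 hrs to block the phosphorylation of Smad2/3. For the last, 16+12 hrs, 16 hrs of SB were followed by 12 hrs of Dox at 1 µg/µl to switch the pathway on through Alk4*. The 16 hrs SB and 16+12 hrs libraries are also called with SB and after Dox here, and the comparisons ask how the miRNAs differ with the pathway blocked and active. All cells carried the Alk4* transgene, came from this single line and were grown with LIF, and the level of Alk4* was not measured here. Both treated cultures were in Knockout Serum Replacement in place of FBS, so the medium and the treatment cannot be told apart in a comparison with the 0 hr library. Between 16 hrs SB and 16+12 hrs, Alk4* cannot be told apart from Dox itself or from 12 more hours of culture. The study tested Dox by qPCR in parental J1 cells without Alk4*, on miRNAs that include none of these arms. The labels describe no replicate culture, so no condition has a spread between samples, and no p-value was computed. All intervals are 95% exact intervals and cover counting error only.

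miRNAs are cut from hairpins as a 5p and a 3p arm, and bases 2 to 8 of an arm, the seed, guide it to its target mRNAs. The miR-99/100, let-7 and miR-125 families are ancient neighbours in animal genomes, and miR-125 is the relative of lin-4 of the worm. In mammals miR-125 and let-7 are known for repressing Lin28 and for rising as stem cells differentiate, while Lin28 in ES cells holds back the processing of let-7 hairpins. miR-99/100 miRNAs are known as repressors of mTOR.

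The mature sequences of the 5p arms, from RefSeq on GRCm38.p6, are shown with the seed in capitals because the seed defines the families and the remaining bases tell their members apart.
miR-99a-5p: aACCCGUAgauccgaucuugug
miR-100-5p: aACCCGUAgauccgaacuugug
miR-99b-5p: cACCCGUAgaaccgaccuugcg
miR-125a-5p: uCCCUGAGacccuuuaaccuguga
miR-125b-5p: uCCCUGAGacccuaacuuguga
All 8 listed arms matched a RefSeq entry of the same name. miR-99a-5p and miR-100-5p differ by U16A, and miR-99a-5p and miR-99b-5p by A1C, U11A, U16C and U21C, with the base of miR-99a-5p first and positions counted from 1 at the 5′ end. The longest stretch shared by the miR-99a and miR-100 hairpins has 16 bases, and that shared by the miR-125a and miR-125b-1 hairpins has 14 bases. The mature arms of miR-99a and miR-99b share no more than 9 bases in a row. The authors kept only reads longer than 16 bases and allowed no mismatch, so no read could be placed on both hairpins of either of these pairs. miR-125b-5p has the same sequence in both of its hairpins, and its reads cannot be divided between them.

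The listed 3p arms are shown in the same way, since they report on single hairpins, followed by the 3p arms that are not listed.
miR-99b-3p: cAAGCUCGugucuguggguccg
miR-125a-3p: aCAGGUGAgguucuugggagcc
miR-125b-1-3p: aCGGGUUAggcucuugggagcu
miR-99a-3p: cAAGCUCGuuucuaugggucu
miR-100-3p: aCAAGCUUgugucuauagguau
miR-125b-2-3p: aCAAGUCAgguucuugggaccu
miR-99b-3p has the seed of miR-99a-3p, whereas the other 3p arms have seeds of their own. The hairpin of miR-125a, with both arms in capitals, shows how the arms lie on either side of the loop.
miR-125a hairpin: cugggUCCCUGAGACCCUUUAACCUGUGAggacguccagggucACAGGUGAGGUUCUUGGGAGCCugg

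In GENCODE M21 on GRCm38 the hairpins form 3 clusters, each with a let-7 hairpin between a miR-99/100 and a miR-125 hairpin. On chromosome 16, miR-99a (77598936 to 77599000), let-7c-1 (77599657 to 77599750) and miR-125b-2 (77646273 to 77646343) lie on the + strand in introns of the noncoding gene Mir99ahg. The chromosome 9 cluster holds miR-100 (41531425 to 41531504), let-7a-2 (41536716 to 41536811) and miR-125b-1 (41581926 to 41582002), in introns of the noncoding transcript 3110039I08Rik, and miR-125b-1 also overlaps an exon of Gm28119. Both of these clusters are wide, with 47408 and 50578 bases from the first to the last hairpin. The chromosome 17 cluster is compact. There miR-99b (17830188 to 17830257), let-7e (17830352 to 17830444) and miR-125a (17830812 to 17830879) take up 692 bases of the + strand within Spaca6, a gene for a sperm protein needed in fertilization. miR-99b and let-7e lie in an intron of Spaca6, and miR-125a overlaps an annotated exon.

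Together the 8 arms had 4478 reads at 0 hr, 8990 with SB and 5809 after Dox, which is 0.144%, 0.328% and 0.176% of the reads on listed miRNAs. Levels are in rpm, the reads of a miRNA per 1000000 reads of the authors' total for the library, and were not divided by length because the arms have 22 to 24 bases. At 0 hr miR-99b-5p had the highest level, followed by miR-125a-5p and miR-125b-5p, whose intervals overlapped. At 16 hrs SB miR-125b-5p stood first, above miR-99b-5p and miR-125a-5p. At 16+12 hrs the order was miR-99b-5p, miR-125a-5p, miR-99b-3p and miR-125b-5p. In the 0 hr library each of miR-125a-3p, miR-99a-5p, miR-100-5p and miR-125b-1-3p had an interval that overlapped that of the next in this order. At 16 hrs SB this held for miR-99b-3p and miR-100-5p and for miR-125a-3p and miR-125b-1-3p, and at 16+12 hrs for miR-100-5p, miR-99a-5p and miR-125b-1-3p. In bulk RNA fewer cells of a type and less RNA per cell cannot be told apart.

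**Figure D1:**
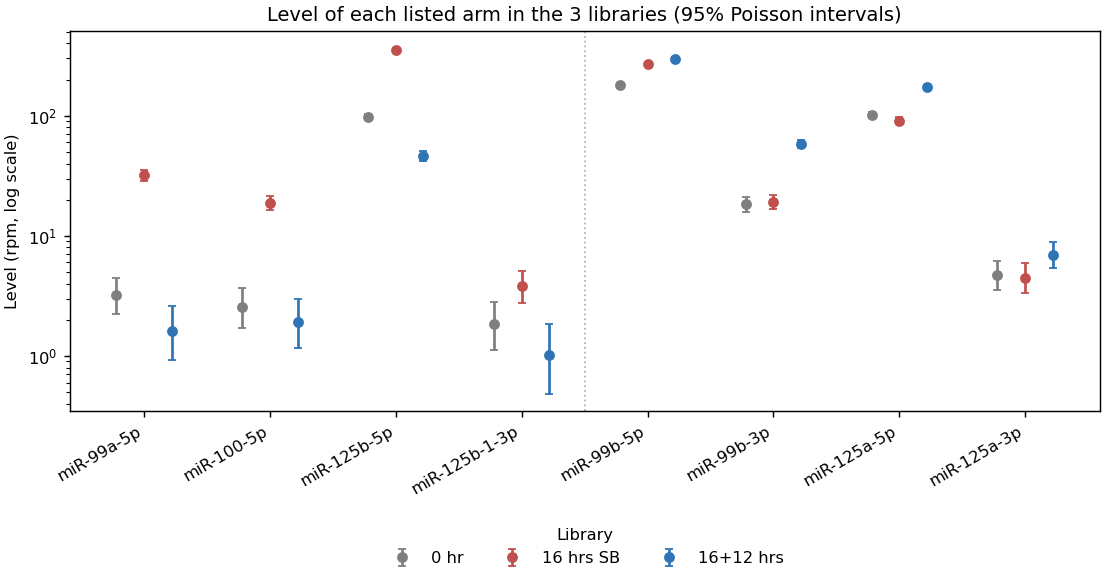
Level of each listed arm (points, rpm on a log axis) in the 0 hr, 16 hrs SB and 16+12 hrs libraries, with 95% Poisson intervals; arms of the chromosome 9 and 16 hairpins are left of the dotted line and those of chromosome 17 are right of it. The 4 arms on the left are highest at 16 hrs SB, and the 4 on the right are highest at 16+12 hrs as deposited, which for miR-99b-5p holds under 1 of 5 other scalings.

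The arms of the chromosome 9 and 16 hairpins were all highest in the 16 hrs SB library. miR-99a-5p had 3.19 rpm (2.23 to 4.44) at 0 hr, 31.9 rpm (28.7 to 35.3) with SB and 1.62 rpm (0.924 to 2.63) after Dox, from 35, 362 and 16 reads. Its level was thus 9.98-fold higher (7.04 to 14.6) with SB than at 0 hr and 19.7-fold lower (12.0 to 34.9) after Dox than with SB. Of all listed miRNAs, 2 had a larger log2 ratio of 16 hrs SB over 0 hr than its 3.32, and 1 had a lower log2 ratio of 16+12 hrs over 16 hrs SB than its −4.30. These log2 ratios were 1.67 and −1.85 with 10 rpm added to every level.

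miR-100-5p, which differs from it by 1 base, had 2.56 rpm (1.70 to 3.69) at 0 hr, 18.9 rpm (16.5 to 21.6) with SB and 1.92 rpm (1.16 to 3.00) after Dox. These levels rest on 28, 215 and 19 reads. The level with SB stood 7.41-fold above that at 0 hr (4.98 to 11.4), and the level after Dox was 9.86-fold below that with SB (6.16 to 16.7). With 10 rpm added to every level the log2 ratios were 1.20 and −1.28, beside 2.89 and −3.30 without. The ratio of miR-99a-5p to miR-100-5p reads was 1.68 (1.42 to 2.00) with SB and 0.842 (0.405 to 1.73) after Dox, and at 0 hr, with 35 over 28 reads, its interval was 0.739 to 2.13. These 3 intervals overlapped. The ratio after Dox was 0.500 (0.235 to 1.05) of that with SB, an interval that includes 1.

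miR-125b-5p, the only listed arm encoded on both chromosomes 9 and 16, had 97.0 rpm (91.3 to 103) at 0 hr, 352 rpm (341 to 363) with SB and 46.5 rpm (42.3 to 50.9) after Dox. With 1063, 3995 and 460 reads its intervals were narrow and did not overlap. It was 3.63-fold higher (3.39 to 3.88) with SB and then 7.57-fold lower (6.87 to 8.35) with Dox. Relative to 0 hr its level at 16+12 hrs was 2.09-fold lower (1.87 to 2.33).

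The 3p arm of chromosome 9, miR-125b-1-3p, was rare, with 1.83 rpm (1.12 to 2.82), 3.79 rpm (2.74 to 5.10) and 1.01 rpm (0.485 to 1.86) from 20, 43 and 10 reads. With SB against 0 hr its log2 ratio was 1.05 (0.26 to 1.90), below the 2.89 (2.32 to 3.51) of miR-100-5p from the same cluster, and the intervals did not overlap. Its log2 ratio of 16+12 hrs over 16 hrs SB was −1.91 (−3.06 to −0.89), which overlapped the −3.30 (−4.06 to −2.62) of miR-100-5p. With 10 rpm added these were 0.22 and −0.32, the first below the 0.32 in size needed for a call. The reads of miR-125b-1-3p were between 1.06% and 2.13% of those on it and miR-125b-5p together.

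The miR-99b and miR-125a arms, from chromosome 17, had another course, with their highest deposited level at 16+12 hrs, although for miR-99b-5p this turned with the scaling. miR-99b-5p had 180 rpm (172 to 188) at 0 hr, 271 rpm (261 to 280) with SB and 299 rpm (288 to 310) after Dox, from 1968, 3074 and 2958 reads. It was 1.51-fold higher (1.42 to 1.60) with SB than at 0 hr. After Dox it stood 1.10-fold above its level with SB (1.05 to 1.16), a log2 ratio of 0.14 that is under the 0.32 needed for a call and that lay between −0.33 and 0.08 with the libraries scaled in 5 other ways. It was below 0 under 4 of these 5, which put the highest level at 16 hrs SB, and with the libraries scaled to their reads on listed miRNAs it was called lower, at −0.33.

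miR-125a-5p had 101 rpm (95.5 to 108) at 0 hr, 91.1 rpm (85.6 to 96.8) with SB and 172 rpm (164 to 180) after Dox. The levels at 0 hr and 16 hrs SB had overlapping intervals, with 1111 and 1034 reads, and 1702 reads stood behind the last. With SB against 0 hr its log2 ratio, −0.16 (−0.28 to −0.03) as deposited, turned with the scaling and was above 0 under 4 of the 5 others. After Dox miR-125a-5p was 1.89-fold higher (1.75 to 2.04) than with SB, a log2 ratio of 0.92 that lay between 0.45 and 0.86 under the other scalings and was called under all 5. Its 3p arm, miR-125a-3p, had 4.75 rpm (3.54 to 6.22), 4.49 rpm (3.34 to 5.91) and 6.97 rpm (5.43 to 8.82) from 52, 51 and 69 reads, and these 3 intervals overlapped.

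miR-99b-3p had 18.3 rpm (15.9 to 21.1) at 0 hr, 19.0 rpm (16.6 to 21.7) with SB and 58.1 rpm (53.5 to 63.1) after Dox. Its level after Dox was 3.05-fold higher (2.61 to 3.59) than with SB, from 216 and 575 reads. The 5p and 3p arms of the miR-99b hairpin therefore parted at this step, at 1.10-fold against 3.05-fold.

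A miRNA was called higher or lower when it passed both criteria of the study's methods. Its log2 ratio had to reach 0.32 in size, and a Z-score from its reads in both libraries had to pass the 95% limit. The Z-score compares libraries and not conditions. For 16 hrs SB over 0 hr, 5 of the 8 arms were called higher, where 15.3% of all listed miRNAs were. They were miR-99a-5p, miR-100-5p, miR-125b-5p, miR-125b-1-3p and miR-99b-5p. None of the 8 was called lower, against 30.2% of all listed, but miR-125a-5p was called lower, at −0.40 on the log2 scale, with the libraries scaled to miR-26a-5p, where 42.9% of all listed were. The median log2 ratio of the 8 was 0.82, and that of all listed miRNAs was −0.19.

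For 16+12 hrs over 16 hrs SB, 4 arms were called lower against a background of 17.9%, and 3 were called higher against 41.7%. The lower arms were miR-99a-5p, miR-100-5p, miR-125b-5p and miR-125b-1-3p, and the higher ones were miR-99b-3p, miR-125a-5p and miR-125a-3p. The log2 ratios spanned −4.30 to 1.61, with a median of −0.88 beside 0.38 for all listed miRNAs. When the miRNA reads of a library served as its total, the split of the arms was 2 higher and 5 lower, against 23.5% and 31.5% of all listed miRNAs. The call of miR-125a-3p held under 1 of the 5 other scalings. This comparison shares the 16 hrs SB library with the one before, so a high value there raises one ratio and lowers the other.

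The 16+12 hrs library was also compared directly with the 0 hr library. Here 4 arms were called higher, against 30.6% of all listed miRNAs, and 2 were called lower, against 19.8%. The log2 ratio was 1.66 (1.43 to 1.90) for miR-99b-3p, 0.76 (0.65 to 0.87) for miR-125a-5p, 0.73 (0.65 to 0.82) for miR-99b-5p and 0.55 (0.01 to 1.10) for miR-125a-3p, whose call held under 0 of the 5 other scalings. The called lower arms were miR-125b-5p at −1.06 (−1.22 to −0.90) and miR-99a-5p at −0.98 (−1.93 to −0.09). The value of miR-99a-5p rests on 16 against 35 reads and was −0.18 with 10 rpm added, under the 0.32 in size needed for a call. For miR-100-5p, at −0.41 (−1.33 to 0.48), and miR-125b-1-3p, at −0.85 (−2.11 to 0.31), the interval included 0. The split was 3 higher and 3 lower with the libraries scaled to their reads on listed miRNAs, against 20.6% and 29.1% of all listed, or to miR-26a-5p, against 19.2% and 31.3%. It was 3 higher and 2 lower under the other scalings tried, where 22.1% to 24.4% of all listed were called higher and 24.2% to 26.8% lower.

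**Figure D2:**
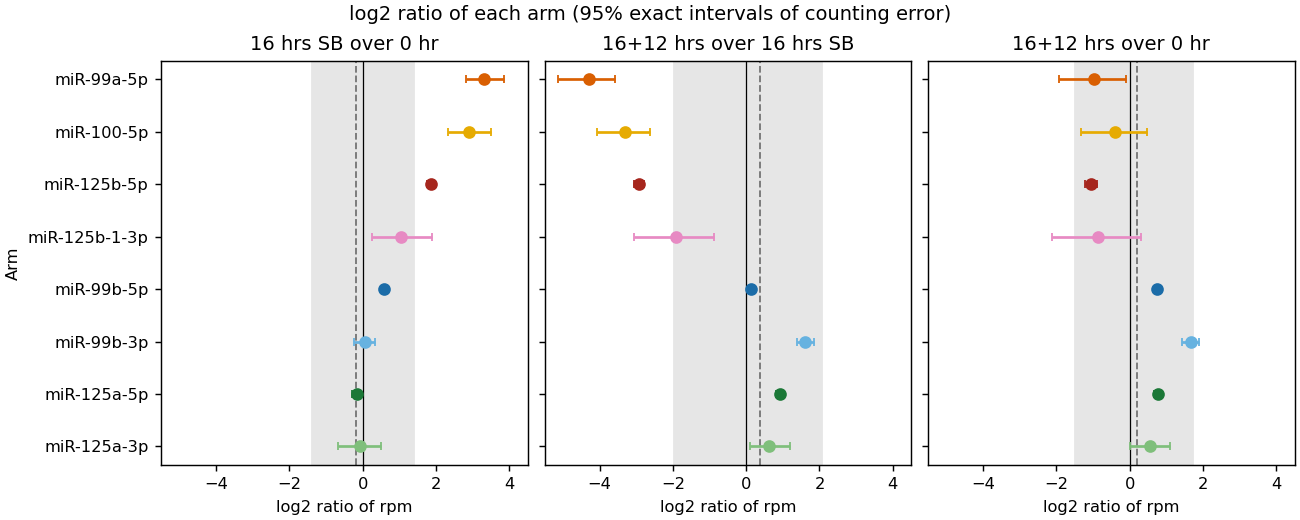
The log2 ratio of rpm (points, with 95% exact intervals of counting error) of each arm in the 3 comparisons; the grey band spans the 5th to 95th percentile of all 693 listed miRNAs, and the dashed line is their median. miR-99a-5p, miR-100-5p and miR-125b-5p lie above the band for 16 hrs SB over 0 hr and below it for 16+12 hrs over 16 hrs SB.

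Because miR-99a, miR-100 and miR-125b are also abundant in fibroblasts, markers of other cell types were read in the same libraries. The 17 fibroblast and mesenchymal miRNAs, which include no member but hold miR-10a-5p and miR-10b-5p, were all listed. They summed to 6074 rpm at 0 hr, 12567 rpm with SB and 6715 rpm after Dox. Of them 14 were called higher and none lower with SB over 0 hr, where 15.3% and 30.2% of all listed miRNAs were. Over 16 hrs SB, 13 were called lower and 1 higher at 16+12 hrs, where 17.9% and 41.7% of all listed were. The median log2 ratios of the 17 were 1.04 and −0.86. Within the list miR-199a-3p had 547 rpm, 1943 rpm and 337 rpm, and miR-214-3p had 1.46 rpm, 6.87 rpm and 0.101 rpm, the last from 1 read. Others took another course, such as miR-21-5p at 1159 rpm, 2486 rpm and 2041 rpm and miR-152-3p at 502 rpm, 427 rpm and 379 rpm. At 16+12 hrs over 0 hr, 4 of the 17 were called higher and 6 lower, where 30.6% and 19.8% of all listed were. The part of fibroblasts in the result for miR-99a-5p, miR-100-5p and miR-125b-5p was not tested.

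**Figure D3:**
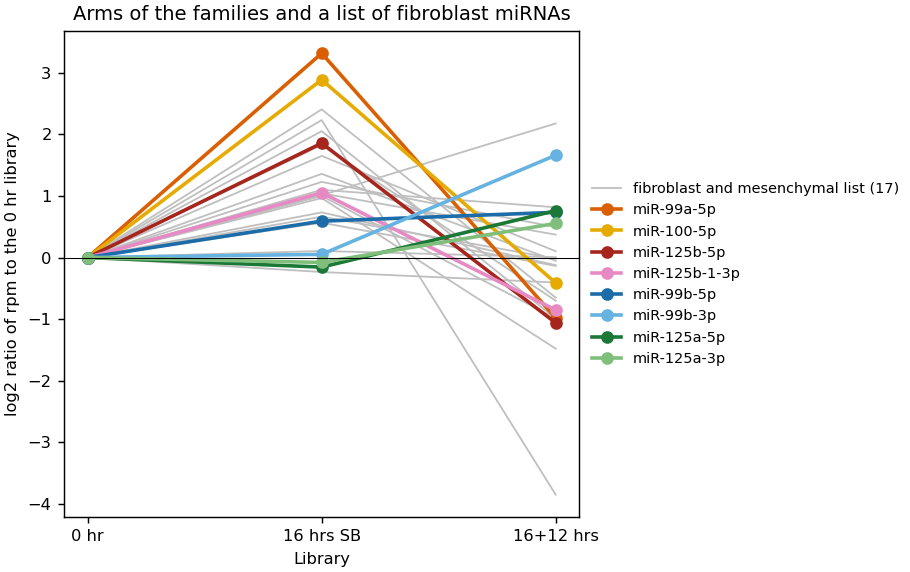
The log2 ratio of rpm to the 0 hr library for each arm (coloured lines) and for the 17 fibroblast and mesenchymal miRNAs (grey lines) in the 3 libraries. miR-99a-5p and miR-100-5p, at 3.32 and 2.89, lie above every grey line at 16 hrs SB, and the lines of the chromosome 9 and 16 arms and of most grey miRNAs come down at 16+12 hrs, unlike those of miR-99b and miR-125a at the deposited scaling.

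Scaling moved the centre of all listed miRNAs. Under the 6 scalings the median of 16 hrs SB over 0 hr lay between −0.44 and 0.04 on the log2 scale, and that of 16+12 hrs over 16 hrs SB between −0.09 and 0.38. Of all calls in the latter comparison, 70.0% were upward as deposited and between 42.8% and 65.9% under the other scalings. For 16 hrs SB over 0 hr the upward share was 33.7% as deposited and 18% to 53.4% otherwise, and for 16+12 hrs over 0 hr it was 60.7% and 38.0% to 50.1%. Ratios of 2 miRNAs within a library do not change when the library is multiplied by a factor, although quantile normalization, 1 of the scalings tried, does change them, and the families were therefore also compared in this way.

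Within the miR-125 family the balance of the members turned over between libraries. miR-125b-5p made up 48.9% (46.8 to 51.0) of the family reads at 0 hr, 79.4% (78.3 to 80.5) with SB and 21.3% (19.6 to 23.1) after Dox, and miR-125a-5p made up the rest. The ratio of miR-125b-5p to miR-125a-5p was 0.957 (0.879 to 1.04), 3.86 (3.61 to 4.14) and 0.270 (0.243 to 0.300). It was 4.04-fold higher (3.62 to 4.51) with SB than at 0 hr and 14.3-fold lower (12.6 to 16.2) after Dox than with SB. The summed level was 198 rpm (190 to 207) at 0 hr, 443 rpm (431 to 455) with SB and 218 rpm (209 to 228) after Dox. Relative to 0 hr the sum after Dox was 1.10-fold (1.04 to 1.17) as deposited, but 0.893-fold to 0.973-fold under the 5 other scalings, which were applied to it after its value was seen, so its direction turned with the scaling.

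miR-351-5p has the same seed as miR-125, although it comes from a hairpin on chromosome X, and it was named after its values were seen. No further listed miRNA shared a seed with either family, among the 516 of 693 with a RefSeq sequence of the same name.
miR-351-5p: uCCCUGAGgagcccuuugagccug
It was rare, at 6.12 rpm, 4.58 rpm and 9.80 rpm, and held between 1.02% and 4.29% of the reads with this seed. Its log2 ratio of 16+12 hrs over 16 hrs SB was 1.10 (0.60 to 1.61), upward like that of miR-125a-5p.

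The miR-99/100 family stayed mostly miR-99b-5p. This arm held 96.9% (96.0 to 97.6) of the family reads at 0 hr, 84.2% (83.0 to 85.4) with SB and 98.8% (98.4 to 99.2) after Dox. The summed level was 185 rpm (177 to 194) at 0 hr, 322 rpm (311 to 332) with SB and 302 rpm (292 to 313) after Dox. The ratio of miR-99a-5p to miR-99b-5p was 6.62-fold higher (4.65 to 9.70) with SB than at 0 hr and then 21.8-fold lower (13.2 to 38.6) after Dox. For miR-100-5p over miR-99b-5p these values were 4.92 (3.29 to 7.60) and 10.9 (6.78 to 18.5).

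**Figure D4:**
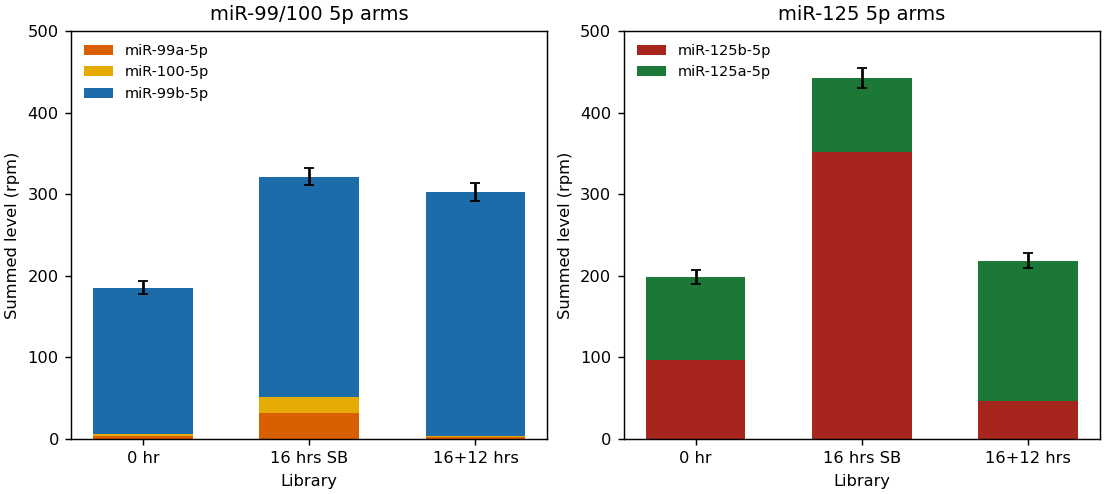
Summed level (rpm) of the 5p arms of the miR-99/100 family (left) and of the miR-125 family (right) in each library, divided by member; bars on top are 95% Poisson intervals of the sum. miR-99b-5p fills 84.2% or more of each left bar, while the larger part of the right bar passes from miR-125b-5p at 16 hrs SB to miR-125a-5p at 16+12 hrs.

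The miRNAs of the compact chromosome 17 cluster did not keep to 1 ratio. The ratio of miR-99b-5p to miR-125a-5p was 1.77 (1.64 to 1.91) at 0 hr, 2.97 (2.77 to 3.19) with SB and 1.74 (1.64 to 1.85) after Dox. The 0 hr and 16+12 hrs values overlapped and the 16 hrs SB value stood above both. let-7e-5p, from the hairpin between them, stood at 1116 rpm at 0 hr, at 1734 rpm with SB and at 1357 rpm after Dox. It was thus highest with SB, unlike miR-125a-5p, and was called higher with SB over 0 hr and lower at 16+12 hrs over 16 hrs SB.

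Here it was the 16+12 hrs library that stood apart, since the ratio of miR-99b-5p to let-7e-5p in the order of the libraries was 0.161 (0.153 to 0.169), 0.156 (0.150 to 0.162) and 0.220 (0.212 to 0.229). The log2 ratios of 16 hrs SB over 0 hr were thus 0.59 for miR-99b-5p, 0.64 for let-7e-5p and, as deposited, −0.16 for miR-125a-5p, and those of 16+12 hrs over 16 hrs SB were 0.14, −0.35 and 0.92. let-7c-5p and let-7a-5p, which come from the other clusters and also from hairpins elsewhere, had log2 ratios of 0.31 and 0.91 with SB and of −0.97 and −0.53 after Dox. The 3p arms let-7c-1-3p and let-7a-2-3p, which would report on these clusters alone, are not listed.

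The 3p share of the miR-99b hairpin also differed between libraries. miR-99b-3p held 9.27% (8.08 to 10.6) of the reads on both arms at 0 hr, 6.57% (5.74 to 7.47) with SB and 16.3% (15.1 to 17.5) after Dox. From 16 hrs SB to 16+12 hrs the ratio of the 3p to the 5p arm was 2.77-fold higher (2.34 to 3.28). On the log2 scale this is 1.47, the third highest of 62 hairpins with at least 100 reads on each arm in every library. Their median was −0.25, with the 5th percentile at −1.53 and the 95th at 1.39, and 9 of the 62, miR-99b included, had a change of at least this size in either direction. For the miR-125a hairpin the 3p share was 4.47% (3.36 to 5.82), 4.70% (3.52 to 6.13) and 3.90% (3.04 to 4.91), and these intervals overlapped.

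**Figure D5:**
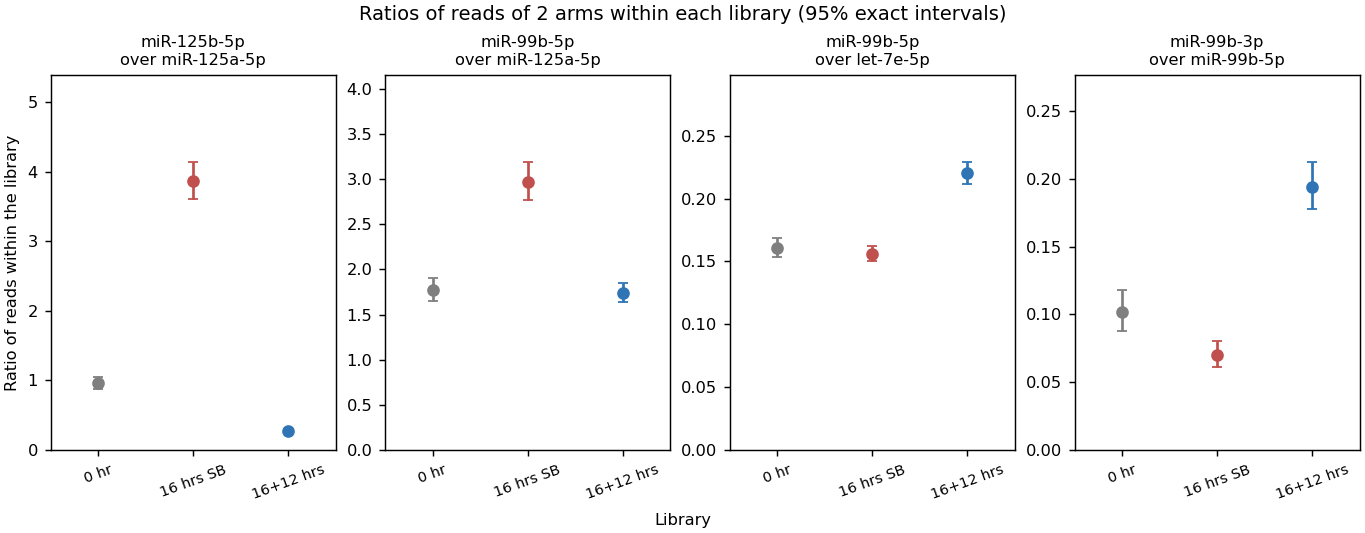
Ratios of the reads of 2 arms within each library (points, with 95% exact intervals), which do not change when a library is multiplied by a factor. The ratios over miR-125a-5p peak at 16 hrs SB, at 3.86 and 2.97, while miR-99b-5p over let-7e-5p and miR-99b-3p over miR-99b-5p are highest at 16+12 hrs, at 0.220 and 0.194.

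The miR-10 family has a 5p sequence related to that of miR-99/100 but another seed, as the sequence of miR-10a-5p shows.
miR-10a-5p: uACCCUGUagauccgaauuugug
From 38.7 rpm at 0 hr, miR-10a-5p stood at 77.5 rpm with SB and at 19.5 rpm after Dox. Its log2 ratios of 1.00 (0.83 to 1.17) and −1.99 (−2.22 to −1.76) had the same directions as those of miR-100-5p and were smaller in size, with no overlap of the intervals. miR-10b-5p had log2 ratios of 0.73 (0.32 to 1.16) and −0.86 (−1.31 to −0.41).

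The miRNAs closest to each member were those with the smallest Euclidean distance over the log2 ratios of 16 hrs SB over 0 hr and of 16+12 hrs over 16 hrs SB, among 451 other miRNAs whose reads summed to 100 or more. miR-125b-5p was closest to miR-199b-5p (0.23) and to miR-199a-3p and miR-199b-3p (0.39), which have identical values. miR-100-5p had miR-199a-5p (0.54), miR-206-3p (0.64) and miR-3096-5p (0.74) as neighbours, and miR-99a-5p had miR-3096b-5p (0.42), miR-3096-5p (0.42) and miR-206-3p (0.83). miR-125a-5p was closest to miR-27b-3p (0.01), miR-1965 (0.07) and miR-182-5p (0.07), and miR-99b-5p to miR-674-3p (0.14), miR-126-3p (0.15) and miR-16-2-3p (0.24). miR-199 miRNAs are known from mesenchymal cells, miR-206 from skeletal muscle and miR-126 from endothelium. The neighbours were picked by these same log2 ratios, and a shared cell source was not tested.

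The labelled cell type was checked against 17 ES cell miRNAs of the miR-290 and miR-302 clusters. All were listed, and they summed to 81818 rpm, 65169 rpm and 93753 rpm in the order 0 hr, 16 hrs SB and 16+12 hrs. With SB over 0 hr 5 were called higher and 4 lower, where 15.3% and 30.2% of all listed miRNAs were. Over 16 hrs SB, 7 were called higher and 8 lower after Dox, where 41.7% and 17.9% of all listed were. The median log2 ratios of the list were −0.05 and −0.06. miR-290-5p alone had 35638 rpm, 18094 rpm and 37406 rpm, and the other 16 summed to 46180 rpm, 47075 rpm and 56347 rpm. Of 6 neural miRNAs 5 were listed, with 2798 rpm, 2124 rpm and 3843 rpm. In the same comparisons and beside the same shares, 3 of these 5 were called lower and none higher with SB. After Dox 5 were called higher and none lower. Lists of muscle (3 of 3 listed), blood (3 of 5), endothelial (1 of 1) and liver (1 of 1) miRNAs summed to at most 95.1 rpm in any library. Over the muscle miRNAs the sum was 44.0 rpm, 95.1 rpm and 54.7 rpm, and miR-206-3p gave 45.4 rpm of the sum at 16 hrs SB. The blood sums were 28.9 rpm, 36.8 rpm and 77.7 rpm, the endothelial level was 2.46 rpm, 4.05 rpm and 4.75 rpm, and the liver level was 5.84 rpm, 24.4 rpm and 19.5 rpm.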

How the data were processed

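Short RNA of TAG1 ES cells was sequenced on an Illumina GAII in 3 libraries, 1 per condition, each pooled by the authors from 2 runs. The authors removed adaptors (FASTX clipper), dropped reads of 16 bases or fewer, and mapped the remainder to miRBase release 18 with Bowtie 0.12.7, allowing no mismatch. The deposited values are in RPM, which the authors' methods give as reads per 1000000 total reads of the sample, and a miRNA is listed when its reads summed to at least 10. A read that fitted several miRNAs equally well was counted for each.

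All 2079 values were whole multiples of 1 step per library within 0.01 reads. The steps correspond to totals of 10955686 (0 hr), 11354692 (16 hrs SB) and 9895513 (16+12 hrs) reads, from which the read numbers were taken. These totals are below the sequenced reads that the study states for each library, and by a larger share for 16+12 hrs. Which reads they count is not given in the sources used here. Ratios of RPM were taken without a pseudocount. Intervals are Poisson for levels, Clopper-Pearson for shares and ratios, and conditional exact for changes of ratios. They cover counting error only, because each condition has 1 library. Reads from PCR carry no molecular identifiers and can be copies of 1 molecule, so the intervals can also be too narrow for counting error.

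Calls were made over all 693 miRNAs with a fold of 1.25 and a Z-score of 1.96. Named miRNAs are the listed arms, the let-7 arms of their clusters, the miR-10 arms, miR-26a-5p, marker lists and the 3 nearest patterns of each of 5 members, and miR-351-5p was added after its values were seen. The members and lists were chosen with earlier results of these data known. Alternatives were 5 other scalings, folds of 1.5 and 2, the fold alone, pseudocounts of 1 and 10 RPM, and a minimum of 100 reads. The calls were tested on simulated data that hold counting error alone, and not the spread between cultures, for 16 hrs SB over 0 hr, with 693 miRNAs. Among those with at least 100 reads, 39 of 40 with a true fold of 2 and 29 of 29 with a true fold of 0.5 were called, as were 4 of 321 with no change. Python 3.11.15, scipy 1.17.1 and pandas 2.3.3 were used.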

Additional observations from a re-analysis of the deposited data

How the results depend on the processing

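No paired analysis was possible because each condition had 1 library, and no library could be left out. With the libraries scaled to miR-26a-5p, 1 arm (miR-125a-5p) was called lower for 16 hrs SB over 0 hr, where none was as deposited. A fold threshold of 2 left 1 arm called higher for 16+12 hrs over 16 hrs SB, and 1 higher and 1 lower for 16+12 hrs over 0 hr. With the fold threshold alone, 4 arms were lower in that last comparison. The shares of all listed miRNAs at a fold of 2 and with the fold alone were not computed, so these counts cannot be set against a background. A pseudocount of 10 rpm moved the ratio of miR-125b-5p to miR-125a-5p to 3.58 with SB and to 0.310 after Dox. The same pseudocount brought the log2 ratios of miR-99a-5p to 1.67 with SB against 0 hr and −1.85 after Dox against SB, those of miR-100-5p to 1.20 and −1.28, and those of miR-125b-1-3p to 0.22 and −0.32. It brought miR-99a-5p at 16+12 hrs over 0 hr to −0.18, under the size needed for a call. With 1 rpm added, miR-99a-5p stood at 2.97 and −3.65. None of the called log2 ratios changed sign under the 5 other scalings or the pseudocounts. The calls of miR-125a-3p rested on the scaling, with the 16+12 hrs over 16 hrs SB call kept under 1 of the 5 and the 16+12 hrs over 0 hr call under 0. Of the log2 ratios not called, that of miR-99b-5p at 16+12 hrs over 16 hrs SB and those of miR-125a-5p and miR-125a-3p with SB against 0 hr changed sign under 4 of the 5, and that of miR-99b-3p with SB against 0 hr under 1. Quantile normalization took the ratio of miR-125b-5p to miR-125a-5p to 3.67 with SB. Read numbers of 10 to 69 for miR-125b-1-3p and miR-125a-3p limit what can be said of them.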
